A study of Mus musculus with 15 samples.

Results

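Olfr110, Olfr111, Olfr112 and Olfr115 are 4 olfactory receptor genes that lie close together on mouse chromosome 17. They are the members described here, 4 of the 36528 gene identifiers in the deposited tables and 4 of the 1126 whose RefSeq symbol starts with Olfr. They were chosen from earlier results of these data because their reads differed between PS2APP and non-Tg libraries. Their genotype values therefore describe that choice and carry no test.

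RNA was sequenced from microglia that were sorted from mouse cortex by the green fluorescent reporter of Cx3cr1, a fractalkine receptor of microglia and other myeloid cells, and every group carried this Cx3cr1::GFP label. The 9 PS2APP samples came from mice with the PS2APP genotype, an amyloid model that carries mutant human presenilin 2 and amyloid precursor protein, 4 of them 14 months old and 5 of them 15 months old. The 6 non-Tg samples came from non-transgenic wild type mice, 2 of them 14 months old and 4 of them 15 months old. The promoters of the transgenes, the sex of the mice and whether each sample was a separate mouse are not stated, so every p-value below measures only the spread between these samples.

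Olfactory receptors are G protein-coupled receptors that olfactory sensory neurons of the nose use to detect odorants. Each such neuron transcribes a single receptor gene out of a very large family, and its receptor signals through the G protein Golf (Gnal), adenylyl cyclase 3 (Adcy3) and a cyclic nucleotide-gated channel. The coding sequence of a typical receptor lies in 1 exon, the genes sit in clusters of close copies, and transcripts of some family members are also found outside the nose.

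The 10 microglia markers were present in every library. Their summed level was 24732 to 36248 CPM in PS2APP and 31328 to 41445 CPM in non-Tg (CPM, counts scaled to library size by edgeR). Of the 15 markers of olfactory sensory neurons, 10 had reads, Gnal and Adcy3 among them. The others, Omp, Cngb1, Rtp1, Gfy and S100a5, had 0 reads in all 15 libraries. The libraries held 3664742 to 8455237 counted reads, with a median of 5867848. The immediate early genes stood high in 4 libraries (PS2APP 1 and 4, non-Tg 9 and 13), and Xist was low in 3 (PS2APP 14, non-Tg 12 and 13). The genotype and age fits were repeated without each of these sets. The interaction, the summed other Olfr genes and the correlations were not.

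The 4 members fall into a pair of close copies and a set of close copies, which sets how well reads can be told apart. In GENCODE M21 (GRCm38), the coding sequence of Olfr110 lies at chr17:37498653-37499603 on the plus strand and that of Olfr111 at chr17:37529979-37530929 on the plus strand, each in a single exon. Both are 951 bases long without the stop codon, and 933 of those bases (98.1%) were identical, with a longest shared run of 416 bases. The stretch of 120 coding bases in which they differ most, coding bases 757 to 876, is shown because it carries 7 of their differences. Capitals mark the bases of Olfr111 that differ from Olfr110, at chr17:37499409-37499528 and chr17:37530735-37530854:
Olfr110: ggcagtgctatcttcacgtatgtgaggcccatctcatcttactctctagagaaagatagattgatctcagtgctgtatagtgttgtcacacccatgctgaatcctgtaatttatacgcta
Olfr111: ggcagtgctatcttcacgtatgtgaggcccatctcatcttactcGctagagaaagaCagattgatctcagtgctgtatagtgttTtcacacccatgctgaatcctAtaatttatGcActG

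Olfr112 (coding sequence chr17:37563350-37564309, minus strand, 960 bases) and Olfr115 (chr17:37609820-37610755, minus strand, 936 bases) belong to the other set, together with Olfr113 and Olfr114, which lie between them and are not members. Over 936 aligned bases Olfr112 and Olfr115 were 91.2% identical, and the pairs within the set ranged from 88.6% to 91.2%. Between the set and the pair of Olfr110 and Olfr111 the identity was 56.9% to 60.4%. The first 120 coding bases of the set are shown so that the starts of the 4 copies can be read side by side; most of their differences lie further along. Capitals mark the bases that differ from Olfr115, at chr17:37610636-37610755, chr17:37564190-37564309, chr17:37575302-37575421 and chr17:37590232-37590351, all read on the minus strand:
Olfr115: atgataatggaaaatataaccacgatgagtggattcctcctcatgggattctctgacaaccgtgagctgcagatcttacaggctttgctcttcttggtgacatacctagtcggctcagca
Olfr112: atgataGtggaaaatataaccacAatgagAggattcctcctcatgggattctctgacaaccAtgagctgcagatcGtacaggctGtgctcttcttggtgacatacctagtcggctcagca
Olfr113: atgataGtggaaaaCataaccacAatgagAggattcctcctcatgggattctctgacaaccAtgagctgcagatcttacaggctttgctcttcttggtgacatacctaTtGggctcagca
Olfr114: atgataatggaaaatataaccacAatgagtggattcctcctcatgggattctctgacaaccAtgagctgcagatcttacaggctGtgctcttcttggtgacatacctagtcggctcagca

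The authors counted only reads that align uniquely. Of the 902 windows of 50 bases in the coding sequence of Olfr110, 518 (57.4%) also occur in a transcript of Olfr111, and the reverse holds for the same number of windows of Olfr111. The share was 22.1% for Olfr112, spread over 7 other receptor genes that include Olfr113, Olfr114, Olfr115 and Olfr116, and 3.72% for Olfr115. The levels of Olfr110 and Olfr111 are therefore uncertain where reads could be split between the copies, and neither read length nor strandedness is stated for these libraries. The gene model behind each deposited count was about 1105 bases for Olfr110, 2029 for Olfr111, 3890 for Olfr112 and 996 for Olfr115, as implied by the ratio of counts to deposited nRPKM and calibrated on 9 receptor genes with a locus of known length. The models of Olfr111 and Olfr112 thus held more than the coding exon. In GENCODE a transcript of Olfr115 runs across Olfr116, so those genes overlap in that annotation. Their RefSeq loci do not overlap, with Olfr115 at chr17:37609785-37610779 and Olfr116 at chr17:37623668-37624633.

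Olfr112 separated the genotypes completely. It stood at 41.6 ± 12.9 CPM (SD, n = 9) in PS2APP and 7.44 ± 5.74 CPM (SD, n = 6) in non-Tg, a log2 fold change of 2.58 ± 0.37 (SE), or 5.97-fold. In PS2APP its reads were 160, 230, 324 and 321 in the 14-month samples 3, 4, 6 and 8 and 241, 175, 314, 93 and 170 in the 15-month samples 1, 7, 10, 14 and 15. In non-Tg they were 57 and 94 in the 14-month samples 5 and 13 and 20, 66, 7 and 22 in the 15-month samples 2, 9, 11 and 12. On the CPM scale the lowest PS2APP sample, replicate 14 at 23.2, lay above the highest non-Tg sample, replicate 5 at 15.8. Such a complete separation, with PS2APP higher, was found for 0.572% of the 13994 genes tested. In sorted bulk RNA, more cells with a transcript and more transcript per cell cannot be told apart.

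Olfr115 was close to absent in non-Tg. All 6 of its non-Tg reads came from replicate 2 (0.981 CPM), and the other 5 libraries held 0 reads. In PS2APP it had 16, 1, 30 and 7 reads in the 14-month samples 3, 4, 6 and 8 and 52, 36, 21, 3 and 20 reads in the 15-month samples 1, 7, 10, 14 and 15. The level was 4.07 ± 3.58 CPM (SD, n = 9), against 0.164 ± 0.401 CPM (SD, n = 6), and the fitted log2 fold change was 4.69 ± 1.01 (SE). The ratio of the summed reads was 23.4 after scaling, with an exact 95% counting interval of 10.6 to 64.7 that leaves out the spread between samples. PS2APP replicates 4 and 14 fell within the non-Tg range and the other 7 lay above it. Olfr115 passed the filter on low counts only through the PS2APP libraries, and without non-Tg replicate 2, the sole non-Tg library with reads, it was at least 39.0-fold higher in PS2APP against a floor of 3 reads over the other 5 non-Tg libraries.

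Olfr111 had the most reads of the 4 in both genotypes. Its PS2APP samples held 249 to 461 reads with a median of 315, and its non-Tg samples held 26 to 232 reads, with 124, 156, 194 and 214 between. The level was 64.7 ± 20.8 CPM (SD, n = 9) in PS2APP and 27.7 ± 17.3 CPM (SD, n = 6) in non-Tg, a log2 fold change of 1.21 ± 0.35 (SE), or 2.32-fold. In PS2APP, 7 samples lay above the highest non-Tg sample, replicate 5 at 53.8 CPM; PS2APP 4 and 6, at 35.8 and 43.7 CPM, did not. Non-Tg 11 was the lowest library at 5.39 CPM.

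Olfr110, the near-copy of Olfr111, was the lower of the pair. Its PS2APP reads were 43, 31, 31 and 48 at 14 months and 14, 15, 50, 18 and 33 at 15 months, and its non-Tg reads were 7 and 22 at 14 months and 13, 21, 2 and 25 at 15 months. The level was 5.74 ± 2.14 CPM (SD, n = 9) against 2.32 ± 1.15 CPM (SD, n = 6), a log2 fold change of 1.25 ± 0.47 (SE), or 2.38-fold. PS2APP 1 and 7, at 2.98 and 3.40 CPM, lay below the highest non-Tg sample, replicate 12 at 3.87 CPM, and the other 7 lay above it. Non-Tg 11 was again the lowest library, at 0.414 CPM, and it was also the lowest for Olfr112, at 1.45 CPM.

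**Figure D1:**
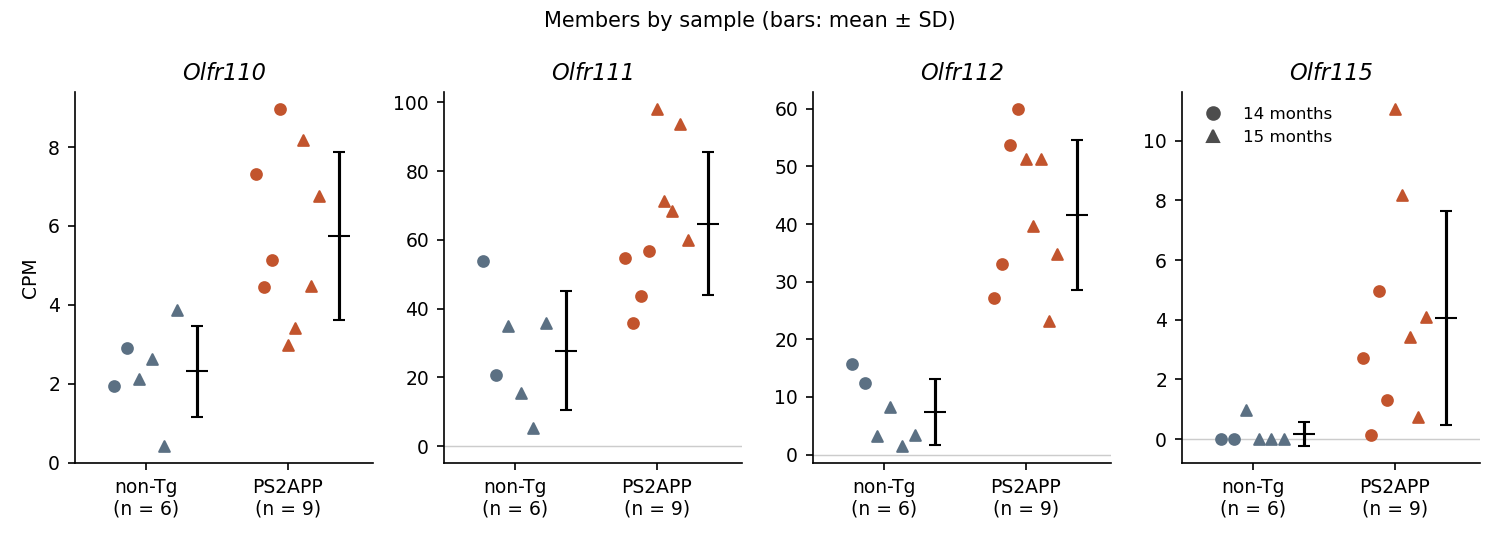
CPM of each member in each sample, with circles for 14 months and triangles for 15 months; the black bars give the mean ± SD of the 6 non-Tg and 9 PS2APP samples, and the vertical scale differs between panels. Only for Olfr112 do all 9 PS2APP samples lie above all 6 non-Tg samples; for the other 3 members 7 of 9 do.

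Among the 13994 genes that passed the filter, edgeR's quasi-likelihood test called 165 for genotype, 1.18% of them, of which 134 (0.958%) were higher and 31 (0.222%) lower in PS2APP. All 4 members passed the filter, and 2, Olfr112 and Olfr115, were among the genes called; since this contrast chose the members, nothing is read from that count. Other settings of the fit reuse this contrast, so their calls describe only how each call depends on the processing and the samples kept. Olfr112 was called in 28 of 29 settings of the fit and was not called at 14 months alone. Olfr115 passed the filter in 23 settings and was called in 17; its call was lost when the 4 libraries with high immediate early genes, the 3 with low Xist or non-Tg 13 were left out, at either age alone and with limma-trend on log2(nRPKM + 1). Olfr111 was called in 4 settings and Olfr110 in 0.

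Levels can be compared between the members only per length, and length alone does not correct for reads that fail to align uniquely. Of the 50-base coding windows, 57.4% of Olfr110 and of Olfr111 also occur in another gene, against 22.1% of Olfr112 and 3.72% of Olfr115. These shares cover the coding sequence only. The rest of the gene models, about 2029 bases in all for Olfr111 and 3890 for Olfr112, was not checked for shared windows. The levels of Olfr110 and Olfr111, their place in the order and their ratio are therefore uncertain. The deposited nRPKM, an RPKM that also carries a size factor for each sample, put the levels in PS2APP at 8.49 ± 2.71 for Olfr111, 2.84 ± 0.872 for Olfr112, 1.38 ± 0.511 for Olfr110 and 1.09 ± 0.957 for Olfr115 (SD, n = 9). Olfr111 exceeded Olfr112, and Olfr112 exceeded Olfr110, in 9 of 9 PS2APP samples. Olfr110 and Olfr115 did not differ beyond their spread there, with Olfr110 the higher in 6 of 9 samples. In non-Tg the levels were 3.65 ± 2.29 for Olfr111, 0.560 ± 0.281 for Olfr110, 0.511 ± 0.395 for Olfr112 and 0.0437 ± 0.107 for Olfr115 (SD, n = 6), and Olfr110 and Olfr112 did not differ beyond their spread there, with Olfr112 the higher in 2 of 6 samples. As a share of the reads of the 4 members, Olfr112 made up 36.3 ± 9.90% in PS2APP and 20.6 ± 11.3% in non-Tg, and Olfr111 made up 55.3 ± 10.5% and 72.2 ± 11.7%. The nRPKM ratio of Olfr111 to Olfr110, the near-copies, was 6.14 in PS2APP and 6.53 in non-Tg.

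Most of the rest of the receptor family was not detected. Of the 1122 other Olfr genes, 876 had 0 reads in all libraries, 246 had at least 1 read and 9 passed the filter. Summed over all of them, the other Olfr genes stood at 52.6 ± 9.64 CPM (SD, n = 9) in PS2APP and 41.9 ± 15.3 CPM (SD, n = 6) in non-Tg, a ratio of 1.26. The groups overlapped, and a two-sided exact permutation test over 5005 splits gave p = 0.117, although 9 of 9 PS2APP samples lay above the non-Tg median. The direction of the sums differed between the ages, a contrast that was not tested. At 14 months the sum was 53.7 CPM in PS2APP and 60.2 in non-Tg (exact permutation p = 0.333, 15 splits, which allow no p below 0.0667), and at 15 months it was 51.8 against 32.8 CPM (exact permutation p = 0.0317, 126 splits). Without non-Tg 13 the exact permutation p over both ages was 0.0395, with a ratio of 1.38. Of the 15 comparisons with 1 sample left out, this was the only 1 below 0.05. The others gave an exact permutation p of 0.0524 to 0.255.

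The 4 members together stood at 116 ± 25.6 CPM in PS2APP and 37.6 ± 21.2 CPM in non-Tg. Their 5498 reads in PS2APP were set against 2537 reads of all other Olfr genes, and their 1308 reads in non-Tg against 1508. They made up 68.3 ± 6.75% of all Olfr reads in PS2APP (59.4% to 78.2%) and 44.7 ± 14.6% in non-Tg (19.2% to 59.95%), the lowest and highest of these non-Tg shares being those of replicates 11 and 2. PS2APP 3 and 15 lay below non-Tg 2, so the shares overlapped at their ends.

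**Figure D2:**
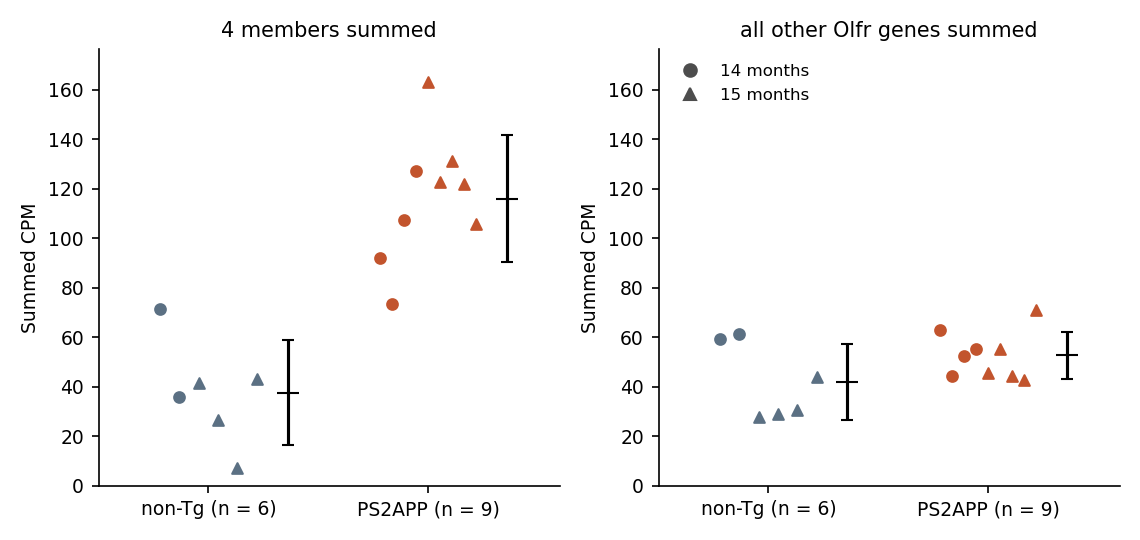
Summed CPM of the 4 members (left) and of the 1122 other Olfr genes (right) in each sample, on the same vertical scale, with circles for 14 months, triangles for 15 months and bars for the mean ± SD. The member sum runs from 73.6 to 163 CPM in PS2APP and from 7.25 to 71.5 CPM in non-Tg, while the sums of the other genes overlap. The members were chosen because they differed between the genotypes, so the separation of their sum describes that choice.

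Of the 9 other Olfr genes tested, 0 were called for genotype by edgeR's quasi-likelihood test. At an unadjusted p under 0.05 there was 1, Olfr113, beside 1635 of the 13994 genes tested. DESeq2 and limma-voom, which called 2.77% and 1.31% of all genes, called 0 as well. Limma-trend called 1, Olfr113, where it called 0.979% of all genes on log2(nRPKM + 1) and 1.24% on log2(nRPKM + 0.1). In a fit with no filter beyond 1 read, which tested all 246 with reads, 0 were called, and that fit called 2.5% of its 25970 genes. The 5 with the most reads were all among the 9 tested; Olfr99 lies within 500 kb of the members and the other 4 on other chromosomes. Olfr1033, on chromosome 2, had a log2 fold change of 0.79 ± 0.40, Olfr920 on chromosome 9 of -0.35 ± 0.68, Olfr99 on chromosome 17 of 0.00 ± 0.47, Olfr1423 on chromosome 19 of 0.43 ± 0.73 and Olfr266 on chromosome 3 of -1.60 ± 0.83, with adjusted p of 0.450, 0.902, 0.999, 0.880 and 0.468. Part of the rest of the sum came from the cluster itself. Olfr genes within 500 kb of the members that are not members stood at 10.7 ± 4.68 CPM in PS2APP and 5.22 ± 3.11 CPM in non-Tg, and all Olfr genes outside it stood at 41.9 ± 8.94 and 36.7 ± 13.4 CPM, a ratio of 1.14 (exact permutation p = 0.380, chosen after seeing the data).

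The close copies of Olfr112 and Olfr115 had fewer reads than either member in PS2APP and were not called by edgeR. Olfr113 (chr17:37574483-37575421) had 124 reads in PS2APP and 18 in non-Tg, or 2.66 ± 1.31 and 0.446 ± 0.588 CPM, a log2 fold change of 2.44 ± 0.78 with an adjusted p of 0.164 from edgeR's quasi-likelihood test; limma-trend gave 0.0416 on log2(nRPKM + 1) and 0.0207 on log2(nRPKM + 0.1). All 9 PS2APP libraries held Olfr113 reads (4 to 21) and 3 of the 6 non-Tg libraries did (8, 8 and 2). Olfr114 (chr17:37589413-37590351) had 98 and 27 reads, with a log2 fold change of 1.47 ± 0.73 and an adjusted p of 0.444, and 15 of its non-Tg reads came from replicate 12. Olfr116, beyond Olfr115, did not pass the filter and had 38 reads in PS2APP and 3 in non-Tg, which after scaling is 9.58 times as many, with exact 95% bounds of 3.04 and 48.5 for counting error.

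Around the members, 70 genes are annotated within 500 kb of the cluster in RefSeq, 42 of them are in the deposited tables, 18 had reads and 5 passed the filter. Of those 5, H2-M3 was called, against 1.18% of all genes. H2-M3 (chr17:37270234-37274485) encodes a non-classical major histocompatibility complex class I molecule that presents formylated peptides. It rose from 29.1 ± 14.5 CPM (SD, n = 6) to 76.4 ± 20.5 CPM (SD, n = 9), a log2 fold change of 1.46 ± 0.30 with an adjusted p of 0.0117. Its PS2APP samples ran from 54.8 to 115 CPM and its non-Tg samples from 7.20 to 51.4 CPM, so the groups did not overlap. Such a separation, with PS2APP higher, was found for 0.572% of the 13994 genes tested. The call was lost at 14 months alone (adjusted p = 0.0695), at 15 months alone (0.148), when the 4 libraries with high immediate early genes were left out (0.0808) and when the 3 with low Xist were (0.0972).

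Gabbr1, a subunit of the GABA B receptor at the far end of the window, had a log2 fold change of -0.30 ± 0.21 (adjusted p = 0.637), and Olfr99, Olfr113 and Olfr114 are given above. H2-M2, the class I-like gene that starts 11.6 kb before Olfr110 (chr17:37480851-37483554), did not pass the filter and was singled out after its values were seen. It had 70 reads in PS2APP and 0 in non-Tg, at least 17.6-fold higher against a floor of 3 reads over the non-Tg group. The PS2APP reads were uneven, with 27 in replicate 6, 21 in replicate 4, 7 in replicates 3 and 1, 6 in replicate 10, 1 in replicates 8 and 14 and 0 in replicates 7 and 15. In the fit with no filter, its adjusted p from edgeR's quasi-likelihood test was 0.0081, where 2.5% of 25970 genes were called. H2-M2 entered that fit only through its PS2APP reads and was picked afterwards, so nothing is read from that p.

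**Figure D3:**
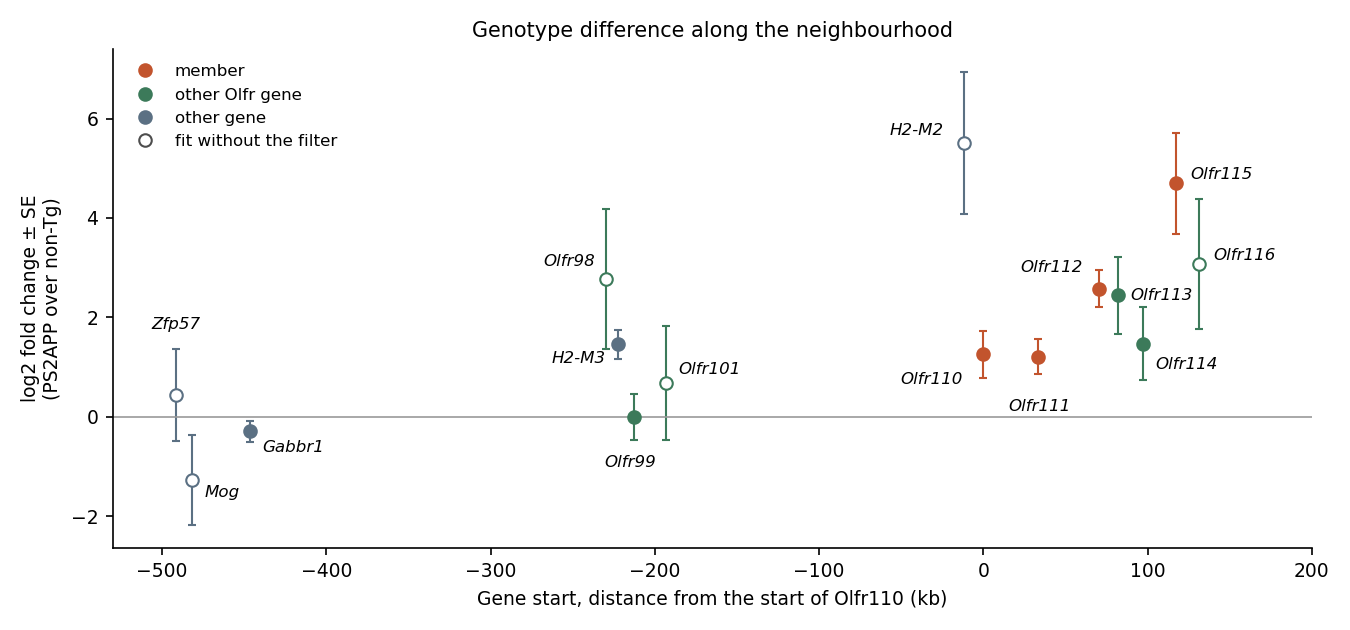
Log2 fold change (PS2APP over non-Tg) ± SE of the 15 genes with at least 10 reads within 500 kb of the members, against the distance of each gene's start from that of Olfr110 in kb. Filled points come from the fit of the 13994 filtered genes. Open points come from the fit with no filter, whose values for genes with few reads depend on the prior count. Mog, Gabbr1 and Olfr99 lie below 0. The 4 members were chosen by this contrast, and a gene could reach 10 reads through 1 genotype alone. Nothing is therefore read from the number of points above 0.

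No member was called for age. Between 15 and 14 months, with genotype in the model, the log2 differences were -0.24 ± 0.45 for Olfr110, 0.17 ± 0.33 for Olfr111, -0.71 ± 0.33 for Olfr112 and 1.46 ± 0.86 for Olfr115 (SE), with adjusted p of 0.920, 0.923, 0.622 and 0.698 from edgeR's quasi-likelihood test. None of the 13994 genes (0%) was called for age by this test, 1112 had an unadjusted p under 0.05 and DESeq2 called 10, none of them a member. On these group sizes the same model on simulated counts with 200 changed genes found 32% of 2-fold and 76% of 4-fold age changes. Olfr112, with an unadjusted p of 0.0437, stood in non-Tg at 14.1 ± 2.39 CPM in the pair of 14-month samples and 4.10 ± 2.93 CPM in the 4 older ones. In PS2APP the same gene stood at 43.5 ± 15.8 and 40.0 ± 11.9 CPM.

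The genotype difference was also set out at each age. For Olfr112 the log2 fold change was 1.66 ± 0.38 at 14 months and 3.24 ± 0.47 at 15 months, and for Olfr111 it was 0.41 ± 0.37 and 1.75 ± 0.42. The interaction terms were 1.62 ± 0.61 for Olfr112 and 1.39 ± 0.62 for Olfr111, with unadjusted p of 0.0155 and 0.0371 and adjusted p of 0.641 and 0.666 over all genes, so neither passed. Olfr110, at 1.41 ± 0.56 and 1.16 ± 0.71, had an interaction of -0.22 ± 0.96 (adjusted p = 0.971). Olfr115 had 0 reads in both non-Tg samples of 14 months, so at that age it was at least 8.31-fold higher in PS2APP (54 reads against a floor of 3 reads over the group), and at 15 months its log2 fold change was 4.37 ± 1.19. Its interaction, -2.32 ± 2.35 (adjusted p = 0.841), depends on the prior count for that reason. No gene of the 13994 (0%) was called for the interaction, 1038 had an unadjusted p under 0.05 and DESeq2 called 6, none of them a member. In simulated data the test found 1% of 2-fold and 20% of 4-fold interactions.

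**Figure D4:**
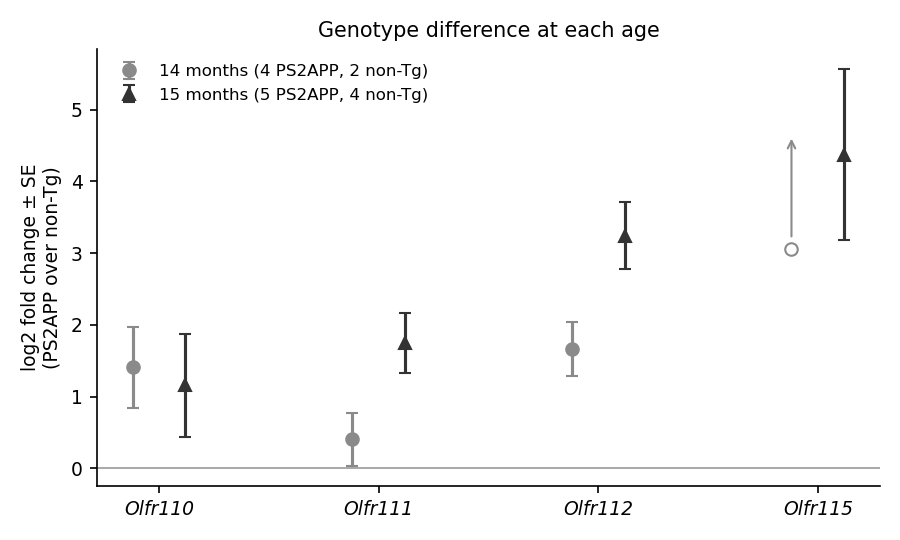
Log2 fold change (PS2APP over non-Tg) ± SE of each member, fitted at 14 months (4 PS2APP and 2 non-Tg samples, circles) and at 15 months (5 and 4 samples, triangles); the open circle with an arrow is the lower bound of Olfr115 at 14 months, where non-Tg held 0 reads. Olfr111 and Olfr112 have the higher value at 15 months, and no interaction passed the adjusted threshold.

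The genes that receptors work with in the nose were taken as 3 lists. Olfactory signalling (20 genes, 12 tested) had 1 gene higher and 0 lower in PS2APP, beside 1.18% of all genes called, and its median log2 fold change was 0.00, beside -0.02 over all genes tested. The called gene was Slc12a2, a sodium, potassium and chloride cotransporter that loads olfactory neurons with chloride and is also widespread outside the nose. It rose from 389 ± 90.5 to 681 ± 138 CPM, a log2 fold change of 0.81 ± 0.17 (adjusted p = 0.0180), a call that was lost without non-Tg 2 (adjusted p = 0.0504), without the 3 libraries low in Xist (0.114) and at 14 months alone (0.687). Gnas, the stimulatory G protein alpha subunit, had a log2 fold change of 0.61 ± 0.18 (adjusted p = 0.115), the calcium and calmodulin-dependent kinase Camk4 of -1.52 ± 0.47 (adjusted p = 0.145) and the G protein beta subunit Gnb1 of -0.24 ± 0.14 (adjusted p = 0.534). DESeq2, which called 2.77% of all genes, called 3 of the 12, these being Slc12a2, Gnas and Camk4. The olfactory forms Gnal and Adcy3 had reads in both genotypes, at 18.0 ± 7.77 and 27.8 ± 12.5 CPM for Gnal and 13.7 ± 3.80 and 12.97 ± 5.68 CPM for Adcy3, in PS2APP and non-Tg in turn.

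Receptor trafficking (12 genes, 7 tested) had 0 genes called and 3 at an unadjusted p under 0.05, with a median of -0.22. Over all 13994 genes tested, 1635 had an unadjusted genotype p under 0.05. Rtp4, a receptor transporter protein that interferon also induces, came nearest, at 40.5 ± 12.3 CPM in PS2APP and 17.5 ± 9.45 CPM in non-Tg, a log2 fold change of 1.21 ± 0.31 (adjusted p = 0.0576). It was called in 8 of 28 alternative settings, among them DESeq2 (adjusted p = 0.00479). Rtp1 had 0 reads and Rtp2, which brings receptors to the surface of olfactory neurons, had 1 read in each genotype. Reep1, Reep5 and Reep4, proteins that shape the endoplasmic reticulum, had log2 fold changes of -1.43 ± 0.56, -0.28 ± 0.13 and 0.51 ± 0.26 (adjusted p = 0.290, 0.413 and 0.460). Receptor gene choice (19 genes, 15 tested), the chromatin proteins and transcription factors that silence and select receptor genes, had 0 called, 0 at an unadjusted p under 0.05, 0 called by DESeq2 or limma, and a median of 0.03. The heterochromatin protein Cbx1, the histone methyltransferase Ehmt1, the corepressor Trim28 and the heterochromatin protein Cbx3 had log2 fold changes of 0.48 ± 0.26, 0.32 ± 0.18, -0.27 ± 0.18 and 0.78 ± 0.62, with adjusted p between 0.501 and 0.683.

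Summed over each list, the PS2APP median was lower for neurons (191 against 365 CPM), astrocytes (478 against 699) and oligodendrocytes (197 against 245). It was also lower for olfactory sensory neurons, endothelial cells and monocytes or neutrophils. It was higher for border macrophages (149 against 134 CPM) and lymphocytes (1.96 against 1.78). The genotypes overlapped for each of these lists. Genes called, beside 1.18% of all genes, went both ways among astrocyte and endothelial markers. The 15 markers of olfactory sensory neurons summed to 20.4 to 43.1 CPM in PS2APP and 33.1 to 61.7 CPM in non-Tg, with medians of 33.5 and 42.5 CPM; 3 of the 15 (Gnal, Adcy3 and Cnga2) passed the filter and 0 of those were called. The 11 neuron markers, each with reads, summed to 63.7 to 382 CPM in PS2APP and 250 to 509 CPM in non-Tg, with 2 of 9 tested (Slc17a7 and Gad2) lower in PS2APP. The 8 astrocyte markers, all tested and none at 0, summed to 319 to 623 CPM in PS2APP and 455 to 1088 CPM in non-Tg; Gfap was higher in PS2APP (log2 fold change 2.08 ± 0.42, adjusted p = 0.0120) and Slc1a2 lower (-1.01 ± 0.22, adjusted p = 0.0202). The 8 endothelial markers, 7 of them tested and none at 0, summed to 45.3 to 75.1 and 55.9 to 104 CPM; Flt1 was higher (2.27 ± 0.50, adjusted p = 0.0220) and Pecam1 lower (-1.21 ± 0.24, adjusted p = 0.0107). The part of these cells in the members' values was not tested.

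Within PS2APP the members did not vary together in a way that passed the test. Over the 9 PS2APP samples, 22 relations were computed, 6 between members and 16 between a member and the mean log2 CPM of plaque-associated, interferon-stimulated, immediate early or neuron genes, and 0 had an adjusted exact permutation p under 0.05 (smallest 0.601 for Pearson's r and 0.476 for Spearman's rho). Olfr112 and Olfr115 had a Pearson r of 0.43 (exact permutation p = 0.249) and a Spearman rho of 0.40 (p = 0.291), and the near-copies Olfr110 and Olfr111 had an r of -0.33 (exact permutation p = 0.377) and a rho of -0.37 (p = 0.336). These values pool both ages. In the 4 samples of 14 months and the 5 of 15 months, r was 0.27 and 0.80 for Olfr112 and Olfr115. For Olfr110 and Olfr111 it was 0.96 and -0.69, so the sign differed between the ages, a contrast that was not tested. Olfr112 and the interferon score had the highest r, 0.65 (exact permutation p = 0.0344, adjusted p = 0.601), with a rho of 0.23 (p = 0.552). Without the 2 samples farthest from the median of the score that r was -0.04, so the relation rests on those samples. The strongest rank relations were those of Olfr112 with the plaque-associated score (rho = 0.72, exact permutation p = 0.0369, r = 0.61, p = 0.0820) and of Olfr110 with the immediate early score (rho = -0.70, exact permutation p = 0.0433, r = -0.62, p = 0.0661), each with an adjusted p of 0.476 for rho. Without the 2 samples farthest from the median of the score, r was 0.45 and -0.69. The coefficient of variation over the PS2APP samples was 37.2% for Olfr110, 32.2% for Olfr111, 31.1% for Olfr112 and 88.0% for Olfr115.

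By the rule for naming genes of like pattern, the 12196 genes whose average log2 CPM reached 2 were ranked by their Pearson r with each member over the 9 PS2APP samples, as a description. For Olfr112 the leading genes were Rps3a1 (r = 0.96), Agtrap (0.96), Hcar2 (0.95) and Fbxw11 (0.93). Hcar2, a receptor for hydroxybutyrate and niacin on myeloid cells, was itself called for genotype, with a log2 fold change of 1.75 ± 0.35 and an adjusted p of 0.00982; the call was lost at each age alone (adjusted p = 0.176 and 0.167) and when the 3 libraries with low Xist were left out (0.0544). For Olfr115 they were Tceal8 (0.96), Aff4 (0.92), Znhit1 (0.90), Ddhd1 (0.90) and Alg10b (0.89), of which Ddhd1 was called (0.86 ± 0.20, adjusted p = 0.0328), a call lost in 19 of 28 alternative settings. For Olfr111 they were Khsrp (0.94), Nelfcd (0.94), Ogg1 (0.92), Vangl2 (0.91) and Meaf6 (0.90), and for Olfr110 Rab3ip (0.94), Fam118b (0.92), Gins1 (0.90) and Wdr61 (0.89). One gene in the list of Olfr110 and 1 in that of Olfr112 have no symbol in the RefSeq table. With so few samples and so many genes ranked, values of this size are the highest of a long list, and the lists of different members named no gene in common.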

How the data were processed

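RNA was sequenced from Cx3cr1::GFP+ cells. The submitters' processing notes name GSNAP and the GRCm38 build; versions, read length and strandedness: not given in the sources used here. Per the file headers, the authors deposited a pair of values per gene for each of the 15 samples, the raw count (uniquely aligning reads) and nRPKM, an RPKM adjusted by a size factor. NCBI Gene identifiers were matched to RefSeq symbols and coordinates (GRCm38.p6), 31049 of 36528, with 97.2% to 98.2% of the reads.

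The members and gene lists were chosen with earlier results of these data known. With edgeR 4.0.16 (R 4.3.3), the 13994 genes that passed filterByExpr by genotype were scaled by TMM and their counts fitted by a quasi-likelihood model of genotype plus age over all samples; a Benjamini-Hochberg adjusted p under 0.05 over all genes was a call. All 4 members passed the filter. The interaction was tested in the same way. Standard errors were taken from the log2 fold change and the F statistic (its size over root F). CPM use TMM-scaled library sizes, and correlations use log2 CPM with a prior count of 2. Summed levels were compared by exact permutation (scipy 1.17.1). Alternatives used DESeq2 1.42.0, limma 3.58.1 (on counts, and on log2(nRPKM + 1) and log2(nRPKM + 0.1)), other scaling, filters and sample sets. On simulated data the genotype test found 30% of 2-fold and 82% of 4-fold changes, and 5.88% of its calls were false.

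The text names the 4 members, the 5 other Olfr genes with the most reads, up to 4 genes per list and up to 6 neighbours with the smallest adjusted p, and the 5 genes with the highest correlation per member. Coding sequences came from the GENCODE M21 transcripts (GRCm38), with exons and coding stretches from its annotation. No 2 samples of a group agreed within sampling noise: in 51 pairs, chi-square over its degrees of freedom was 10.5 to 75.0. Counting intervals and floors cover counting error only, and no molecular identifiers are stated. Depth was 3664742 to 8455237 counted reads.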

Additional observations from a re-analysis of the deposited data

Results flagged for a closer look

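Olfr115 in the non-Tg group was flagged because a single sample stood apart: replicate 2 held 0.981 CPM (6 reads) while the other 5 libraries held 0, so the gap filled the whole range of the group. In 22 groups of values looked at, this was the only 1 flagged. For normally distributed values, chance flags about 1 group in 20. A group with reads in a single sample is flagged by construction, so that rate does not apply here. The lower bound of the Olfr115 difference without that library is given with its values above.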

How the results depend on the processing

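No paired analysis was possible because the replicate numbers run once through all 15 samples and no number is shared between the genotypes. The log2 fold change of each member kept its sign in every alternative that could give it. Leaving out 1 sample at a time gave 1.06 to 1.47 for Olfr110, 0.98 to 1.61 for Olfr111, 2.37 to 2.79 for Olfr112 and 4.37 to 7.57 for Olfr115, which had 9 such fits because without any of 6 PS2APP samples it failed the filter. Values that moved by more than the spread between samples were 7.57 for Olfr115 without non-Tg 2 and, at 14 months alone, 0.41 for Olfr111, 1.66 for Olfr112 and 6.77 for Olfr115, with log2(nRPKM + 1) 1.32 for Olfr112 and 0.92 for Olfr115, and with log2(nRPKM + 0.1) 2.85 for Olfr115. The fitted 7.57 and 6.77 stand against non-Tg samples with 0 reads, depend on the prior count and are no bounds. A pseudocount pulls low values together by construction, and the cause of the others was not tested.

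The number of genes called for genotype was 165, 118 to 188 with 1 sample left out, 648 with no filter, 388 with DESeq2, 50 at 14 months alone, 65 at 15 months alone and 81 without the 3 libraries low in Xist. Without the 4 libraries with high immediate early genes it was 142. Members called were 2, 1 to 3 with 1 sample left out and 0 at 14 months alone. The number was 1 at 15 months alone and with log2(nRPKM + 1). It was also 1 without the 4 libraries with high immediate early genes, or without the 3 with low Xist. The contrast chose the members, so nothing is read from these numbers. Pathway and neighbour genes called were 2, 2 to 3 with 1 sample left out, 7 with no filter, 5 with DESeq2, 4 with limma-trend at either pseudocount, 1 at 15 months alone, 1 when the libraries with high immediate early genes were left out, 1 with neighbours within 200 kb, and 0 at 14 months alone and without those low in Xist. For age and for genotype by age 0 members were called in any setting, 0 to 0 with 1 sample left out, and 0 relations passed on either other scale.

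The ratio of the summed other Olfr genes turned to 0.892 at 14 months alone, was 1.58 at 15 months alone and ran from 1.18 to 1.38 with 1 sample left out. The age difference of Olfr111 was -0.022 when the libraries with high immediate early genes were left out and -0.025 without those low in Xist, and ran from 0.05 to 0.56 with 1 sample left out. The interaction of Olfr110 ran from -0.57 to 0.13 and that of Olfr115 from -2.72 to 1.26 with 1 sample left out. Among genes that were not called, Olfr920 was 0.80 at 15 months alone, and at 14 months alone Olfr1423 was -0.32 and Trim28 0.091. Olfr99, at 0.00, was 0.24 with no age term, 0.014 with no filter, 0.0021 with a count of at least 10 in 3 samples, 0.39 with limma-voom, 0.046 and 0.10 with the 2 pseudocounts, 0.24 at 14 months alone, 0.14 without the libraries low in Xist, and -0.26 to 0.37 with 1 sample left out. Low counts limit Olfr115, whose non-Tg level rests on 6 reads, and the age and interaction tests, whose 14-month non-Tg group has 2 samples.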

Other observations

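Other chemoreceptor families had few reads in these libraries. The 232 vomeronasal type 1 receptor genes summed to a median of 0.288 CPM in PS2APP and 1.86 CPM in non-Tg, and 22 of them had reads. The 127 vomeronasal type 2 receptor genes summed to medians of 6.35 and 4.94 CPM, with 25 genes with reads, and the 35 bitter taste receptor genes to 4.31 and 2.45 CPM, with 5. Of the 15 trace amine-associated receptor genes, 1 had reads. Each of these family sums was below the median of 122 CPM that the 4 Olfr members reached in PS2APP.

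Olfr98, 229.7 kb before Olfr110, had 20 reads in PS2APP and 1 in non-Tg, 15.1 times as many after scaling with exact 95% bounds of 2.42 and 627 for counting error, and was not called in the fit with no filter (adjusted p = 0.397).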
